A study of Mus musculus with 2 samples.

Results

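Annexins and galectins were followed as 10 named genes, taken by symbol from the 22711 genes listed for each of 2 lines of immortal mouse embryonic fibroblasts. They were 8 annexin genes (Anxa1, Anxa2, Anxa3, Anxa4, Anxa5, Anxa6, Anxa7 and Anxa11) and 2 galectin genes (Lgals1 and Lgals3). All 10 had a row for both lines, 9 were above 0 in at least 1 of them, and 8 reached the minimum set for comparing levels, 5 FPKM in 1 line or more.

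The lines were hybrids of the mouse strains C57BL/6N (B6) and PWK/PhJ (PWK), grown on gelatin in serum-containing medium. PWK-Xi is the line whose inactive X chromosome is the PWK copy, with the strain cross written as C57BL/6N X PWK/PhJ. B6-Xi is the line whose inactive X is the B6 copy, with the cross written as PWK/PhJ X C57BL/6N. Polyadenylated RNA was sequenced by Smart-seq2, a full-length cDNA method, and each line gave 1 library, so no value below has an error and the lines could not be tested against each other. Values are FPKM, fragment numbers corrected for the length of the transcript and the size of the library, given separately for B6 and PWK alleles and summed over both for a total level.

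Annexins bind acidic phospholipids of the membrane in the presence of calcium, through a conserved core of repeated folds that they share. They link membranes to the cytoskeleton, help to seal torn plasma membrane, and several bind small S100 proteins. Galectins are lectins for beta-galactosides. They leave the cell without a classical signal sequence and crosslink glycoproteins such as integrins, fibronectin and the LAMP proteins. Fibroblasts are known for high levels of both families.

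Fibroblast transcripts were present in both libraries. Col1a2, a type I collagen gene, had 69.2 FPKM in PWK-Xi and 134.3 FPKM in B6-Xi, and of 10 fibroblast markers only Lum was listed at 0, in B6-Xi. Of these 10 markers, 4 stood higher in PWK-Xi by 2-fold or more and 2 stood lower by as much, where 17.8% and 5.83% of all genes that reached 5 FPKM stood higher and lower by that fold. The marker list had no common direction. Its lower members were S100a4 and Col3a1, and Dcn, Lum, Pdgfra and Pdgfrb were the higher ones, with Lum counted against a value of 0 in B6-Xi. The 6 epithelial markers summed to 1.03 FPKM in PWK-Xi and 0 FPKM in B6-Xi, the 4 endothelial markers to 0.205 and 0.0476 FPKM in PWK-Xi and B6-Xi, and the 6 immune markers found in the files to 3.30 and 1.39 FPKM in PWK-Xi and B6-Xi. Nearly all of the immune sum was Cd68, while Ptprc, the common leukocyte marker, had 0.050 FPKM in PWK-Xi and was listed at 0 in B6-Xi. A 0 in these files can be a failed estimate, as Vim, B2m and Ppia were listed at 0 in both lines. The absence of a cell type is therefore not read from these sums. In PWK-Xi 12907 genes were above 0, and in B6-Xi 10127, with summed FPKM of 256196 in PWK-Xi and 285397 in B6-Xi. In such bulk RNA, fewer cells of a type and less RNA per cell cannot be told apart.

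Annexin transcripts were less abundant in PWK-Xi as a family. The 8 annexin genes summed to 767.3 FPKM in PWK-Xi and 1715 FPKM in B6-Xi, a 2.23-fold lower sum in PWK-Xi. Anxa1, Anxa2 and Anxa6 carried the difference: together they held 388.1 FPKM in PWK-Xi and 1372 FPKM in B6-Xi, against 379.1 FPKM in PWK-Xi and 343.0 FPKM in B6-Xi for the other 5. The order of the levels was therefore not the same in the lines. In PWK-Xi it was Anxa2, Anxa3, Anxa1, Anxa5, Anxa4, Anxa6, Anxa7 and Anxa11, and in B6-Xi it was Anxa2, Anxa1, Anxa5, Anxa6, Anxa3, Anxa4, Anxa7 and Anxa11. Without replicates, which neighbours in either order differ beyond their spread could not be told.

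Of the 8 members that reached 5 FPKM, 7 were lower in PWK-Xi and 1 (Anxa3) was higher, with both alleles lower for all 7. Over all 5490 genes at that minimum, 37.9% were lower in PWK-Xi. Members at least 2-fold lower in PWK-Xi on the log2(FPKM + 1) scale were Anxa1, Anxa2 and Anxa6, 3 of 8, where the same held for 5.83% of all genes. No member was at least 2-fold higher, against 17.8% of all genes. Of the 5490 genes, 241 were listed at 0 in B6-Xi and 8 in PWK-Xi, and without these 14.1% stood 2-fold or more higher and 5.95% lower by that fold. On that scale, as PWK-Xi over B6-Xi with a pseudocount of 1 FPKM, the median difference was -0.71 over these 8 members and 0.23 over all 5490 genes. The 8 members passed the minimum on either line's value, so these figures leave out Anxa11 and Lgals3.

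**Figure D1:**
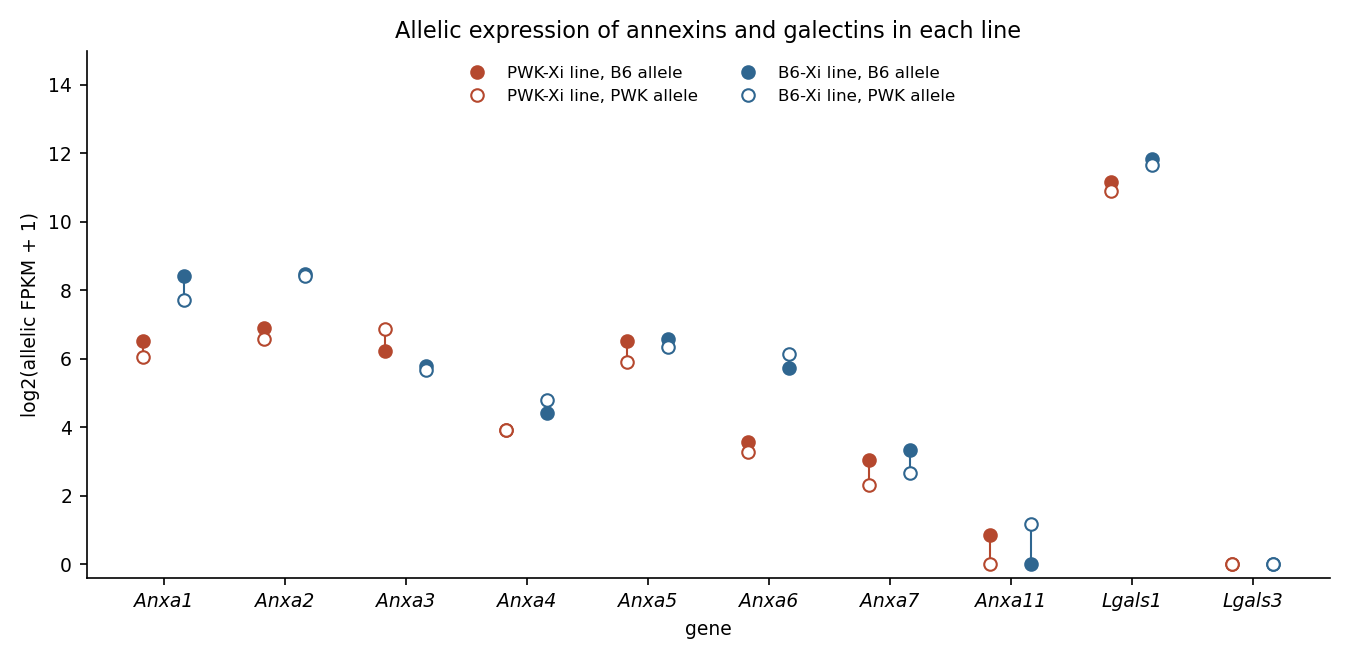
Allelic level of each gene as log2(allelic FPKM + 1), with the PWK-Xi line (red) left of the B6-Xi line (blue), the B6 allele filled and the PWK allele open, 1 library per line. Lgals1 lies far above every annexin in both lines, and both alleles of Anxa1, Anxa2 and Anxa6 lie lower in PWK-Xi.

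Anxa2 was the most abundant annexin in both lines. Its protein joins S100a10 in a complex that binds membrane, actin and plasminogen. In PWK-Xi the B6 allele had 117.4 FPKM and the PWK allele 95.1 FPKM, and in B6-Xi they had 355.1 and 341.5 FPKM. The totals were 212.5 FPKM in PWK-Xi and 696.6 FPKM in B6-Xi, 3.28-fold lower in PWK-Xi. Neither allele of PWK-Xi came near the level of either allele of B6-Xi. On the log2 scale the difference was -1.71, with -1.59 for B6 and -1.83 for PWK transcripts, and 101 of the 5490 genes had a lower value. Anxa2 supplied 27.7% of all annexin FPKM in PWK-Xi and 40.6% in B6-Xi.

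Anxa1, a glucocorticoid-regulated annexin whose secreted form acts on formyl peptide receptors, was also lower in PWK-Xi. Its B6 and PWK alleles had 90.7 and 65.5 FPKM in PWK-Xi, against 344.6 and 209.7 FPKM in B6-Xi. The totals were 156.1 FPKM in PWK-Xi and 554.2 FPKM in B6-Xi, a 3.55-fold lower level in PWK-Xi, with a log2 difference of -1.82. More FPKM was assigned to the B6 allele than to the PWK allele in each line, with a B6 share of 58.1% in PWK-Xi and 62.2% in B6-Xi. The receptor genes Fpr1 and Fpr2 were listed at 0 in both lines, and nothing on their expression is read from these values of 0.

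The 250 bases before the annotated start of these 2 genes are printed because they are the members lower in both alleles by more than 3-fold that have an entry in RefSeq's promoter table (build GRCm38.p6, 7 of the 10 members matched). Capitals mark TATAAA, searched on the gene's own strand with its first base between -40 and -15 from the start, and TGANTCA, a motif that reads the same on both strands.
Anxa1, chr19:20390672-20390921, minus strand: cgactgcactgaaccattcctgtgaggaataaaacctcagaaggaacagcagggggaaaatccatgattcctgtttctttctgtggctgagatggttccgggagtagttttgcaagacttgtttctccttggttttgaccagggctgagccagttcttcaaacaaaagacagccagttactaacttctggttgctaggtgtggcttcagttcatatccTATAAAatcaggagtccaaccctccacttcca
Anxa2, chr9:69453433-69453682, plus strand: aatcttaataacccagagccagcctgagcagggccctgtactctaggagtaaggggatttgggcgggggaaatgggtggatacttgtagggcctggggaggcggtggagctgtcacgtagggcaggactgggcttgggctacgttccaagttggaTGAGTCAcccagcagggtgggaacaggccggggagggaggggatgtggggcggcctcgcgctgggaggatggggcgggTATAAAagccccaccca
TATAAA began 32 bases before the start in Anxa1 and 17 bases before it in Anxa2, and no other of the 9 member promoters in the table held it in that window. It was found there in 2.11% of all 32851 promoters of the table. TGANTCA occurred in the Anxa2 stretch and in no other member's, and in 6.75% of all promoters. The motif GGGCGG, counted on either strand, occurred 3 times before Anxa2 and 0 times before Anxa1, with at least 1 match in 32.7% of all promoters. These matches are letters in a window and describe no binding, and the promoters were picked after the levels were known.

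Anxa6 had the largest difference of the 10 genes. Its protein carries a duplicated annexin core and takes part in membrane repair and in endosomal cholesterol traffic. The B6 and PWK alleles had 10.8 and 8.77 FPKM in PWK-Xi, and 51.8 and 69.0 FPKM in B6-Xi. The totals were 19.5 FPKM in PWK-Xi and 120.8 FPKM in B6-Xi, 6.18-fold lower in PWK-Xi. The log2 difference of -2.57 was undercut by 38 of the 5490 genes. Anxa6 was the only member at least 4-fold lower in PWK-Xi, where 1.33% of all genes were. Its log2 difference was -2.16 on the B6 allele and -2.84 on the PWK allele, and the B6 share was 55.1% in PWK-Xi and 42.9% in B6-Xi.

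Anxa3, a calcium-dependent phospholipid-binding annexin, was the only member higher in PWK-Xi. Its B6 and PWK alleles had 73.5 and 116.5 FPKM in PWK-Xi, and 54.8 and 49.9 FPKM in B6-Xi. The totals were 189.9 FPKM in PWK-Xi and 104.7 FPKM in B6-Xi, 1.81-fold higher in PWK-Xi, with a log2 difference of 0.85. The PWK allele stood higher by 1.21 on the log2 scale and the B6 allele by 0.42, so most of the difference lay in the PWK allele. Anxa3 made up 24.8% of annexin FPKM in PWK-Xi and 6.11% in B6-Xi. When each library was scaled to the same summed FPKM, which moved the median of all genes by 0.16 on the log2 scale, Anxa3 passed 2-fold with a log2 difference of 1.01.

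The remaining annexins differed by less than 2-fold. Anxa5, which binds exposed phosphatidylserine and is used as a stain for dying cells, had 148.9 FPKM in PWK-Xi and 175.8 FPKM in B6-Xi. Anxa4, a calcium-dependent membrane-binding annexin best known from epithelia, had 28.3 FPKM in PWK-Xi and 46.8 FPKM in B6-Xi. For Anxa7, whose protein binds sorcin and ALG-2, the levels were 11.2 FPKM in PWK-Xi and 14.4 FPKM in B6-Xi. Their log2 differences were -0.24 for Anxa5, -0.71 for Anxa4 and -0.34 for Anxa7. With 73.8% of all genes above Anxa5 and 77.8% above Anxa7, neither stood out from the table.

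**Figure D2:**
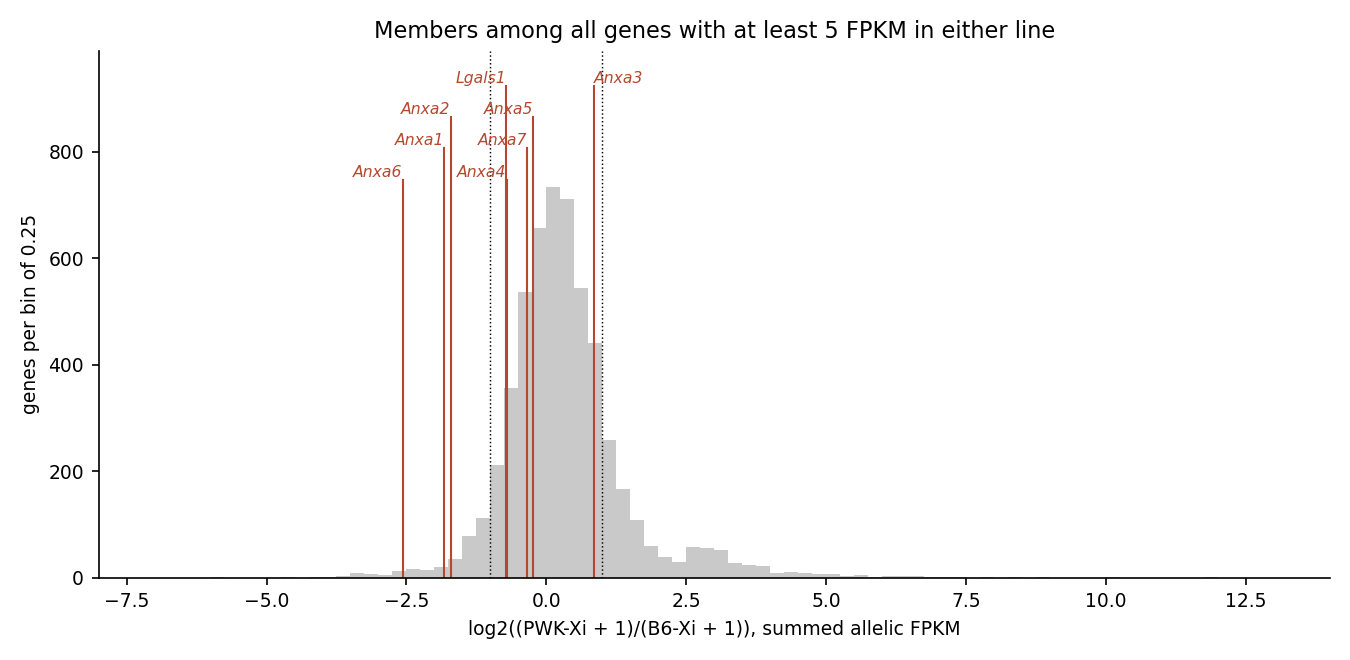
Number of genes (y axis) by log2 difference between PWK-Xi and B6-Xi (x axis, pseudocount 1 FPKM) for the 5490 genes that reach 5 FPKM in 1 line or both, with red lines at the 8 members measured and dotted lines at 2-fold. Anxa6, Anxa1 and Anxa2 stand in the left tail at -2.57, -1.82 and -1.71, and Anxa3 alone is right of 0, at 0.85.

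Anxa11, an annexin that binds ALG-2 and S100a6, was barely listed. It had 0.803 FPKM in PWK-Xi, all on the B6 allele, and 1.28 FPKM in B6-Xi, all on the PWK allele. Both totals lie under the minimum, so no difference is read from them. The gene shares 657 bases of its 2394-base transcript at 100% identity with the pseudogene Gm2260 and 609 bases at 99.7% with Gm2274, and the antisense gene Anxa11os overlaps it. Its low value and its shares are therefore uncertain. No other member had a copy of at least 95% identity over 200 bases among the GENCODE transcripts. Antisense or opposite-strand genes also overlap Anxa1, Anxa2 and Anxa4, and the labels do not say that strand was kept. The one of these that has a row in the files, 1500015L24Rik at Anxa1, was listed at 0 in both lines.

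Of the galectin members, only Lgals1 was above 0. Lgals1, the dimeric galectin-1 of mesenchymal cells, had the highest listed FPKM in PWK-Xi and ranked 2 in B6-Xi. Vim, B2m and Ppia were listed at 0 in both lines, so ranks and percentages hold only among the values listed. Its B6 and PWK alleles had 2312 and 1914 FPKM in PWK-Xi, and 3676 and 3259 FPKM in B6-Xi. The totals of 4226 FPKM in PWK-Xi and 6935 FPKM in B6-Xi made up 1.65% of the summed FPKM in PWK-Xi and 2.43% in B6-Xi. Its level was 1.64-fold lower in PWK-Xi, a log2 difference of -0.71, with -0.67 on the B6 allele and -0.77 on the PWK allele. The B6 share was 54.7% in PWK-Xi and 53.0% in B6-Xi.

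Lgals3, the chimera-type galectin-3 with a collagen-like tail, was listed at 0 for both alleles in both lines. So were 9578 of the 22711 genes (42.2%), among them Vim, B2m and Ppia, which fibroblasts use. Gapdh, a glycolysis gene that all cells use, had 48.2 FPKM in PWK-Xi and was listed at 0 in B6-Xi. A 0 in these files can thus be a failed estimate, and nothing on the expression of Lgals3 can be read from it. Neither copies nor overlapping genes were found for it in the annotation.

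The B6 shares of the members were read against those of all autosomal genes. Of the 8 members measured, 7 in PWK-Xi and 6 in B6-Xi had at least 50% from B6, and pooled over the annexins the B6 share was 52.8% in PWK-Xi and 54.3% in B6-Xi. The median autosomal gene with at least 1 FPKM had 52.8% in PWK-Xi and 50.0% in B6-Xi. About 50% or more of those genes thus also had at least 50% from B6. No lean of the members is read from their counts. Outside the range of 40% to 60% lay 3 of 8 members in PWK-Xi, where 42.1% of autosomal genes with at least 5 FPKM did. These were Anxa3 at 38.7%, Anxa5 at 60.6% and Anxa7 at 64.4%. In B6-Xi it was 2 of 8, Anxa1 at 62.2% and Anxa7 at 63.0%, against 52.5% of autosomal genes. No member's B6 share differed by 20 points or more between the lines, while 26.8% of 3827 autosomal genes differed by that much. The widest differences (PWK-Xi minus B6-Xi) were -13.6 points for Anxa3 and 12.3 points for Anxa6. Relative to the median share of their chromosomes in each line they were 0.94 points for Anxa3 and -1.13 points for Anxa6, both of the opposite sign and near 0. Anxa7 leaned to B6 in both lines and differed by 1.33 points, and Lgals1 differed by 1.71 points. The depth behind these shares is unknown. The step that split reads by allele is not described, and its effect on the shares was not tested.

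**Figure D3:**
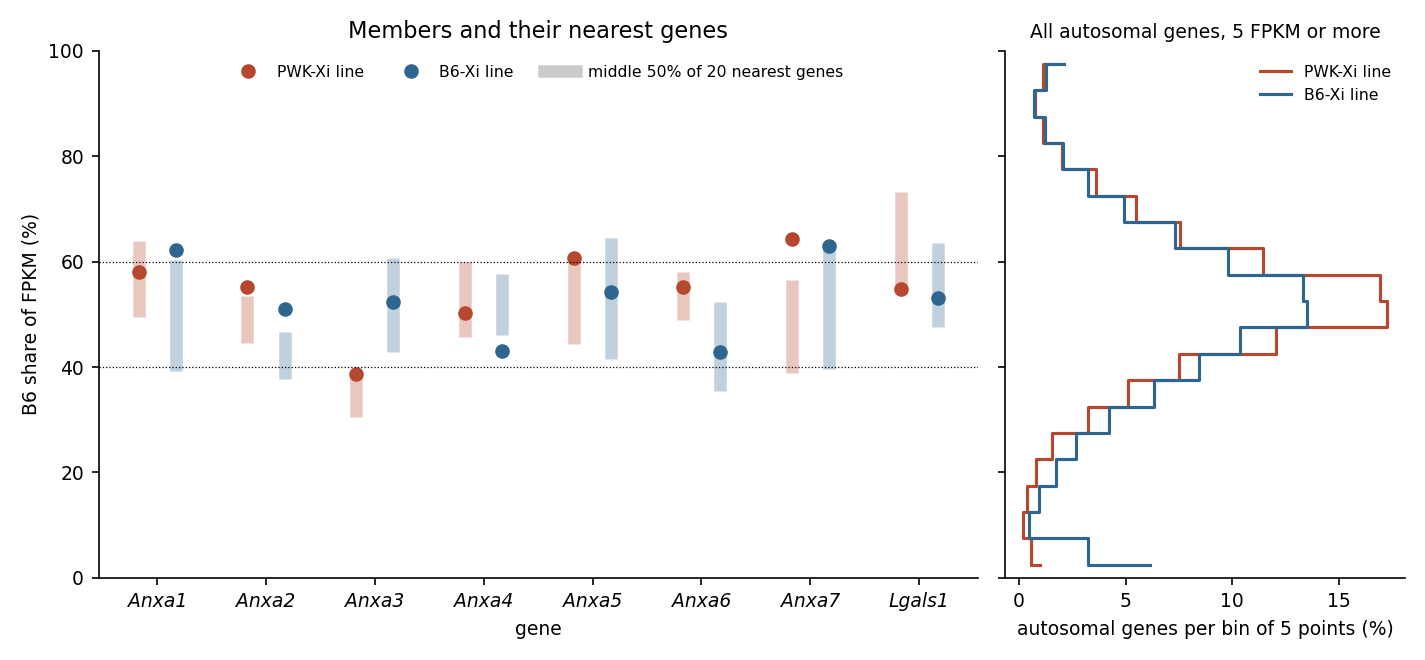
B6 share of FPKM (%) of the 8 members in PWK-Xi (red, left of each pair) and B6-Xi (blue), with bars for the middle 50% of the 20 nearest genes, beside the share of all autosomal genes per bin of 5 points. Anxa3 in PWK-Xi, at 38.7%, lies just above the bar of its neighbours, both under 40%, and Anxa7 lies above 60% in both lines.

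Neighbouring genes gave a local background, since some chromosomes had uneven shares. For each member these were the 10 nearest genes on each side with at least 1 FPKM in both lines, in the gene order of GRCm38. Around Anxa3 on chromosome 5, from Sdad1 to Coq2, the median B6 share was 33.1% in PWK-Xi and 51.9% in B6-Xi, beside 38.7% and 52.3% for Anxa3 itself in PWK-Xi and B6-Xi. The neighbours' median log2 difference was 0.81, and 9 of the 20 exceeded the 0.85 of Anxa3. Its level and its share thus moved with those of the chromosome around it, whose part in the result was not tested.

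Around Anxa6 on chromosome 11, from Kif3a to Larp1, the median share was 54.9% in PWK-Xi and 43.1% in B6-Xi, against 55.1% and 42.9% for Anxa6 in PWK-Xi and B6-Xi. Its share thus lay near the local background, while its level lay lower. The neighbours' median log2 difference was -0.28, the lowest was -1.20, and none of the 20 was below the -2.57 of Anxa6. Likewise none of the 20 neighbours of Anxa1, with a lowest value of -1.10, or of Anxa2, with a lowest value of -1.62, had a lower log2 difference than the member. Their neighbours' medians were -0.02 around Anxa1 and 0.12 around Anxa2. Genes under 1 FPKM in either line were left out of the neighbours. With the pseudocount, neighbours of low FPKM in B6-Xi could not reach differences as low as those of Anxa1, Anxa2 and Anxa6. The lack of lower neighbours was therefore partly open to this choice, and how many neighbours it limited was not counted. For Lgals1 the median was -0.23, and 4 of its 20 neighbours were lower.

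**Figure D4:**
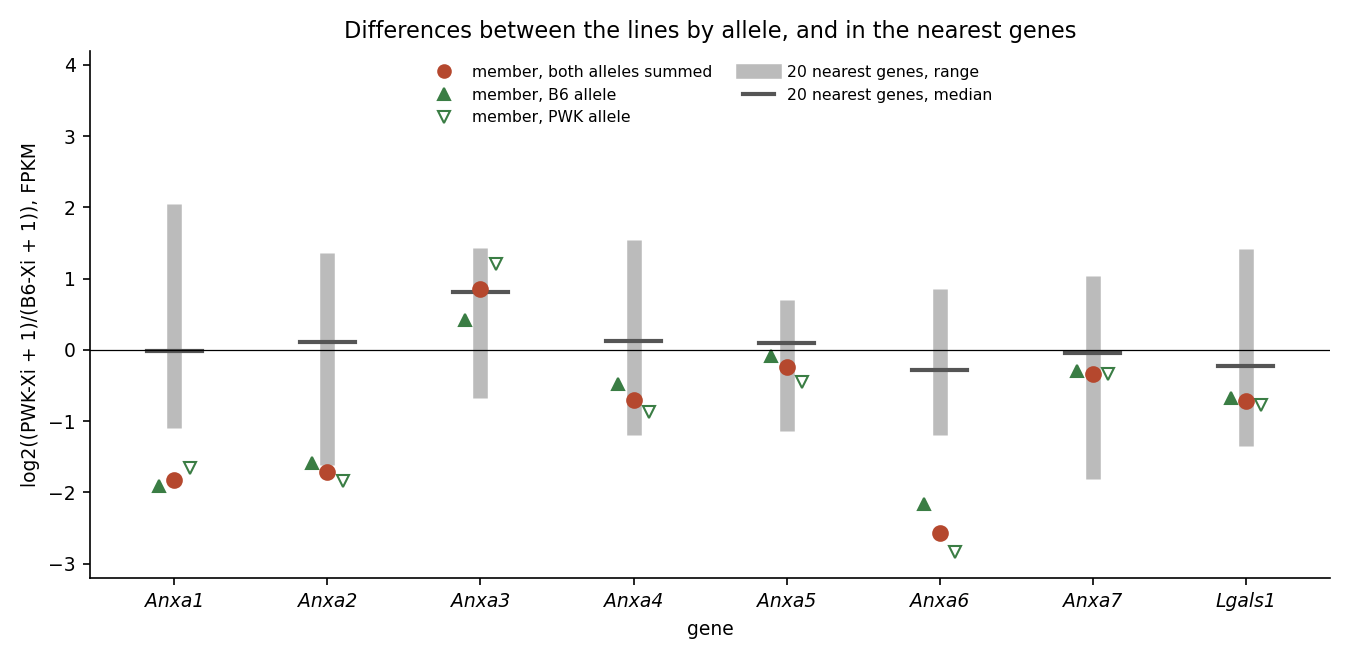
Log2 difference between PWK-Xi and B6-Xi (pseudocount 1 FPKM) for each of the 8 members, as the sum of both alleles (circle), the B6 allele (upward triangle) and the PWK allele (downward triangle), over the range (grey bar) and median (dark line) of the 20 nearest genes. Anxa1, Anxa2 and Anxa6 lie below every neighbour kept, each with at least 1 FPKM in both lines, and Anxa3 lies on its neighbours' median of 0.81.

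Genes that work with annexins were read from a list of 11 partners, of which 8 reached the minimum. Of these, 3 were lower in PWK-Xi by 2-fold or more and none was higher by as much, where 5.83% of all genes were lower and 17.8% higher by that fold. In any size 6 of the 8 were lower and 2 higher, where 37.9% of all genes were lower. The median log2 difference was -0.45 over these 8, against 0.23 over all genes at the minimum. S100a10, the binding partner of Anxa2, had 436.7 FPKM in PWK-Xi and 985.4 FPKM in B6-Xi, 2.26-fold lower in PWK-Xi. The ratio of Anxa2 to S100a10 FPKM was 0.486 in PWK-Xi and 0.707 in B6-Xi, so the pair did not differ in equal measure. S100a4, a motility-related S100 gene, was 5.60-fold lower, with 2321 FPKM in PWK-Xi and 13006 FPKM in B6-Xi; it also stands in the fibroblast list. The third was Ahnak, a large scaffold gene of the Anxa2 complex named after its value was seen, at 11.8 FPKM in PWK-Xi and 44.4 FPKM in B6-Xi. S100a11, the partner of Anxa1, stayed close, at 718.8 FPKM in PWK-Xi and 789.0 FPKM in B6-Xi. S100a6 had 3744 FPKM in PWK-Xi and 6361 FPKM in B6-Xi, and Sri, which encodes sorcin, had 53.0 and 56.9 FPKM in PWK-Xi and B6-Xi. The higher pair, named after their values were seen, were Pdcd6, which encodes ALG-2, with 54.8 FPKM in PWK-Xi and 38.6 FPKM in B6-Xi, and the plasminogen activator gene Plat, with 7.93 FPKM in PWK-Xi and 5.49 FPKM in B6-Xi.

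Among 12 measured membrane repair genes, 9 reached the minimum. Only Ptrf, a caveolar coat gene now called Cavin1, was at least 2-fold lower in PWK-Xi, with 24.1 FPKM in PWK-Xi and 79.8 FPKM in B6-Xi, and none was 2-fold higher. That is 1 of 9 lower, where 5.83% of all genes were. Cav1, the caveolin gene, had 28.2 and 45.6 FPKM in PWK-Xi and B6-Xi. The calpain genes Capn2 (31.4 and 46.9 FPKM in PWK-Xi and B6-Xi) and Capns1 (113.6 and 129.1 FPKM in PWK-Xi and B6-Xi) and the ferlin gene Myof (17.1 FPKM in PWK-Xi and 19.7 FPKM in B6-Xi) were also within 2-fold. The list's median was -0.23, and 7 of the 9 were lower in PWK-Xi in any size, as were 37.9% of all genes.

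Galectin ligands and the enzymes that branch N-glycans for galectin binding had no common direction. Of 12 genes at the minimum, 6 were lower and 6 higher in PWK-Xi, where 37.9% of all genes were lower. By 2-fold or more, 2 were lower and 1 higher (5.83% and 17.8% of all genes). The median log2 difference was -0.07, against 0.23 over all genes at the minimum. The glycoprotein ligand gene Lgals3bp had 25.8 FPKM in PWK-Xi and 79.9 FPKM in B6-Xi, 3.10-fold lower in PWK-Xi. The totals of Mgat4b and Mgat2, branching enzyme genes named after their values were seen, pointed opposite ways. Mgat4b had 6.63 FPKM in PWK-Xi and 45.8 FPKM in B6-Xi, and Mgat2 had 18.6 FPKM in PWK-Xi and 7.63 FPKM in B6-Xi. The B6 allele of Mgat2 had 10.0 FPKM in PWK-Xi and was listed at 0 in B6-Xi. Its PWK allele had 8.53 FPKM in PWK-Xi and 7.63 FPKM in B6-Xi. The 2-fold call of Mgat2 thus rests on a 0 that can be a failed estimate. Lamp1 (170.4 and 126.7 FPKM in PWK-Xi and B6-Xi), Lamp2 (119.9 FPKM in PWK-Xi and 90.2 FPKM in B6-Xi), Cd9 (117.1 FPKM in PWK-Xi and 137.9 FPKM in B6-Xi) and Itgb1 (47.6 FPKM in PWK-Xi and 45.5 FPKM in B6-Xi) lay within 2-fold. Lamp2 lies on the X chromosome. All of its FPKM came from the B6 allele in PWK-Xi and from the PWK allele in B6-Xi.

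**Figure D5:**
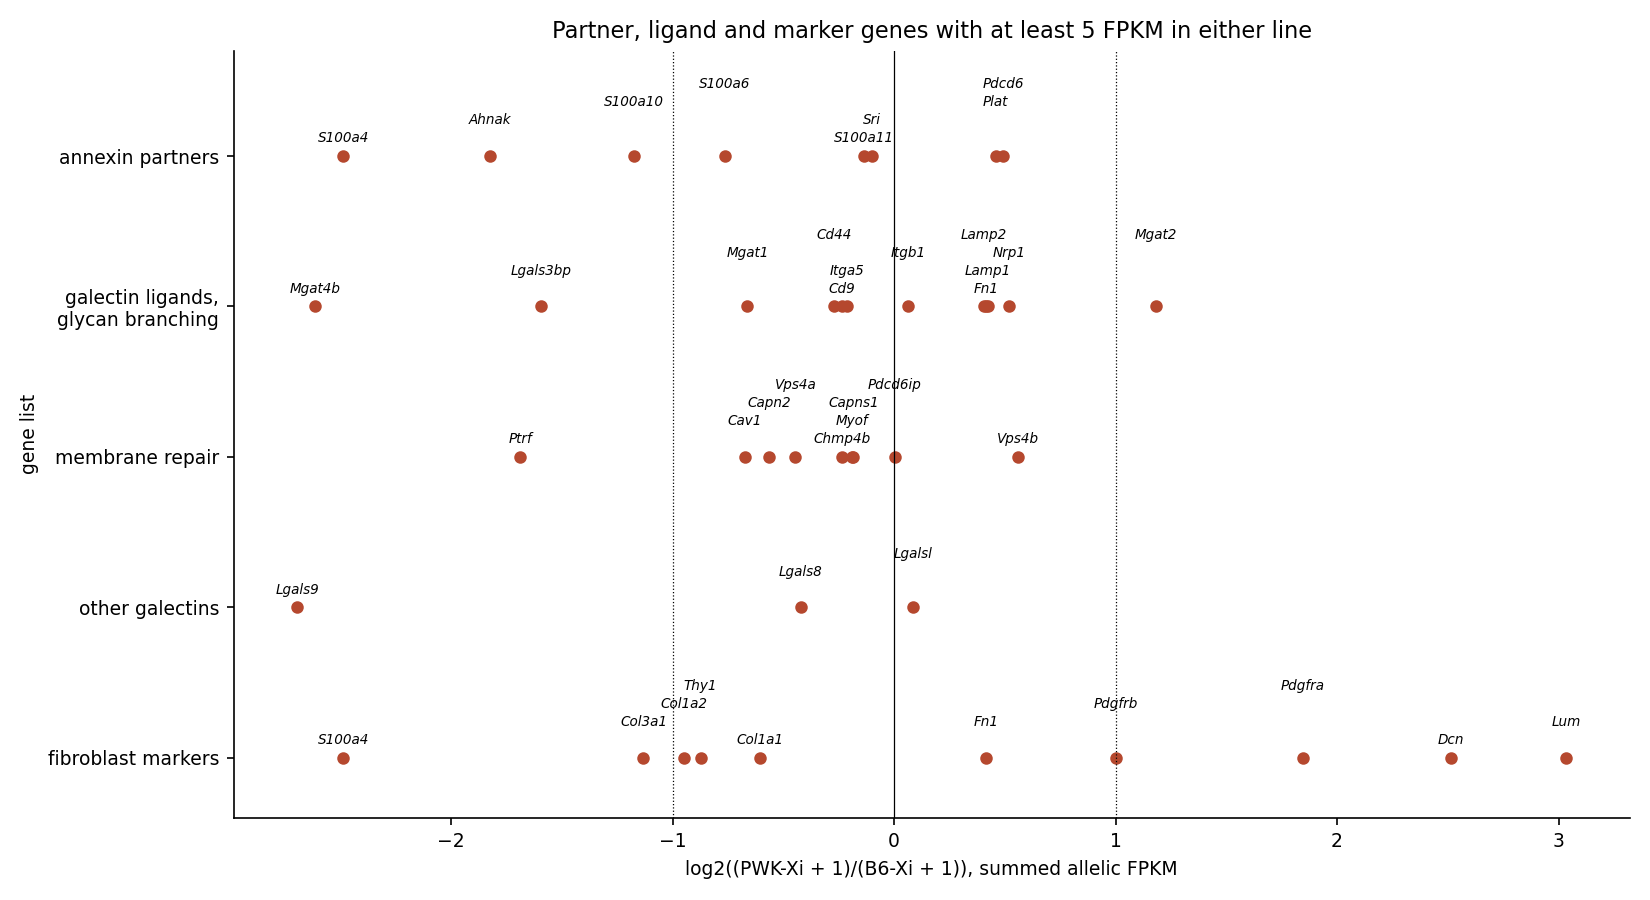
Log2 difference between PWK-Xi and B6-Xi (x axis, pseudocount 1 FPKM) of each gene that reaches 5 FPKM in 1 line or both, by gene list (y axis), 1 point per gene and dotted lines at 2-fold. S100a10, S100a4 and Ahnak among the annexin partners and Ptrf among the repair genes lie left of the 2-fold line, while the fibroblast markers spread from -2.49 to 3.03.

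Most of the 12 further annexin and galectin genes lay under the minimum. Anxa8 and Anxa9 stayed under 2 FPKM in both lines, and Anxa10 and Anxa13 were listed at 0 in both. Of 8 further galectin genes 3 reached the minimum. Lgals9, a tandem-repeat galectin, was 7.60-fold lower in PWK-Xi, with 4.85 FPKM in PWK-Xi and 36.8 FPKM in B6-Xi. Lgals8, another of that type, had 7.87 and 10.9 FPKM in PWK-Xi and B6-Xi, and Lgalsl, a galectin-like gene, had 8.50 and 7.95 FPKM in PWK-Xi and B6-Xi. Lgals2 was listed at 0 in PWK-Xi and had 1.22 FPKM in B6-Xi. Lgals6, Lgals7 and Lgals12 were listed at 0 in both lines, and Lgals4 had 0.048 FPKM in PWK-Xi and was listed at 0 in B6-Xi. As for Lgals3, nothing is read from these values of 0.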

How the data were processed

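The authors deposited, for each of 2 Smart-seq2 libraries, an FPKM value per gene and allele (B6 or PWK), as the file headers name them. Per the submitters' processing notes, the tools were StringTie 2.1.1, HISAT2 2.2.0 and Trim Galore 0.6.4, with build mm9; the step that split reads by allele is not described there. FPKM are not counts, so read depth cannot be given and no interval was computed.

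Groups came from the sample titles. Total level was the sum of both alleles, B6 share was B6 FPKM over that sum, and differences were log2((PWK-Xi + 1)/(B6-Xi + 1)), which understates low genes. Calls at 2-fold or 4-fold used genes reaching 5 FPKM in 1 line or both. With 1 library per line there is no p-value. Members, lists and thresholds were chosen with earlier results of these data known. Every member was named, with up to 5 of the most abundant genes of each list plus S100a10, S100a11, S100a6, Lgals3bp and Lgals9. Genes outside this rule, among them Ahnak, Pdcd6, Plat, Mgat2, Mgat4b and the markers beyond those 5, were named after their values were seen.

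Gene order came from GENCODE M21 and RefSeq (GRCm38), matched by symbol or synonym for all but 95 of 22711 genes, and no coordinate was carried over to mm9. Copies were sought with blastn 2.17.0. Other steps ran in Python 3.11.15 with pandas 2.3.3, numpy 2.4.6 and matplotlib 3.10.9, after tests on simulated data. Pseudocount, minimum, scaling, allele choice and local background were varied.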

Additional observations from a re-analysis of the deposited data

Results flagged for a closer look

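For 4 genes the allele with more FPKM was the B6 one in 1 line and the PWK one in the other. How many of all genes did so was not counted. Among autosomal genes with at least 5 FPKM, shares of 50% to 55% were the commonest in both lines. A small difference can therefore cross 50%. The difference between the lines was not tested, since each has 1 library. Anxa3 had a B6 share of 38.7% in PWK-Xi and 52.3% in B6-Xi, and its nearest genes had 33.1% in PWK-Xi and 51.9% in B6-Xi. Set against its chromosome median, taken as 50%, it had 52.3% in PWK-Xi and 51.3% in B6-Xi, on the same side. Anxa6 had 55.1% in PWK-Xi and 42.9% in B6-Xi, with 54.9% and 43.1% among its nearest genes in PWK-Xi and B6-Xi. Against the chromosome median it too was on the same side, at 51.1% in PWK-Xi and 52.2% in B6-Xi. Anxa4 had 50.3% in PWK-Xi and 43.1% in B6-Xi, beside 50.3% and 49.6% among its nearest genes in PWK-Xi and B6-Xi. It was on the PWK side in both lines against the chromosome median (46.9% in PWK-Xi and 41.2% in B6-Xi) and with alleles scaled to their autosomal sums (48.0% in PWK-Xi and 42.5% in B6-Xi). Anxa11 had 100% in PWK-Xi and 0% in B6-Xi, at 0.803 FPKM in PWK-Xi and 1.28 FPKM in B6-Xi.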

How the results depend on the processing

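Across the alternatives run, the log2 differences of Anxa1, Anxa2 and Anxa6 stayed past 2-fold, between -2.01 and -1.66, -1.90 and -1.56, and -2.84 and -2.16. Those of Anxa4, Anxa5, Anxa7 and Lgals1 stayed negative and within 2-fold. Anxa3 passed 2-fold when libraries were scaled to the same sum (1.01, with 1 member then at least 2-fold higher and 24.4% of all genes), from the PWK allele alone (1.21) and from the higher allele doubled (1.08). It was 0.04 relative to its 20 nearest genes, an alternative chosen after seeing the data. Relative to the chromosome median, set to 50%, the B6 share of Anxa3 in PWK-Xi turned to 52.3% and that of Anxa5 was 57.1%. Anxa5 had 58.3% with alleles scaled to their autosomal sums. The count of members outside 40% to 60% was 1 in PWK-Xi around chromosome medians, and 1 in B6-Xi with a minimum of 20 FPKM. No difference in share reached 20 points under any alternative run, but those of Anxa3 and Anxa6 became 0.94 and -1.13 points around chromosome medians. No paired analysis was possible because each line has 1 library, and for the same reason no library could be left out. Unknown depth limits every share.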

Other observations

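For 3 galectin-related genes outside the named members, the alleles were unequal and by nearly the same share in both lines. Lgals9 came mostly from B6 in both lines, at 89.6% in PWK-Xi and 88.9% in B6-Xi, although its level was 7.60-fold lower in PWK-Xi. Lgals3bp came mostly from PWK in both, with a B6 share of 7.48% in PWK-Xi and 7.66% in B6-Xi. Lgalsl had 29.9% in PWK-Xi and 30.0% in B6-Xi. All 3 lie on chromosome 11, whose median B6 share was 54.1% in PWK-Xi and 40.7% in B6-Xi. These genes were singled out after their values were seen, and how many of all autosomal genes did the same was not counted. Some alleles had little FPKM. The PWK allele of Lgals9 had 0.505 FPKM in PWK-Xi, and the B6 allele of Lgalsl had 2.38 FPKM in B6-Xi. With unknown depth, the closeness of the shares is not read as precision.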
